A study of Mus musculus with 10 samples.

Results

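Chemokines are small secreted or membrane-bound proteins that direct the movement of leukocytes and some other cells along concentration gradients. They act through G protein-coupled receptors, while atypical receptors bind chemokines without classical G protein signalling and mostly remove or present them. In skin, keratinocytes, fibroblasts, vessels and resident immune cells make different sets of these ligands, and wounding is a strong stimulus for the inflammatory ones. The genes described here are the chemokine ligands and receptors of the mouse, chosen by their symbols (Ccl, Cxcl, Cx3cl, Xcl, Ccr, Cxcr, Cx3cr, Xcr or Ackr followed by a number) from the deposited table of protein-coding genes. The choice gave 60 genes of 21729 in that table and of 55416 gene identifiers in all. They comprise 38 ligands, 18 conventional receptors and 4 atypical receptors.

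RNA was sequenced from blastemas, the growths of proliferating cells on the stump of an amputated digit tip. The mutants carried ΔLARM1/2, a deletion of limb enhancers of the homeobox gene Lmx1b that leaves the gene itself in place, and the study's title concerns digit tips that fail to regenerate without Lmx1b. The 4 groups were mutants at 12 days post amputation (dpa; 3 libraries), wild type at 12 dpa (2 libraries), mutants at 14 dpa (3 libraries) and wild type at 14 dpa (2 libraries). Animals were 33 days old at 12 dpa and 35 days old at 14 dpa, of a mixed CD1 and C57Bl/6 background in both genotypes, and each library held the tissue of 6 amputated central hindlimb digits. The design text speaks of biological replicates, but no label ties a library to separate animals, so a p-value here reflects how far these particular libraries vary, and some of that may be technical.

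Libraries held 69998104 to 101632364 expected counts. Lmx1b stood at 0.0788, 0.336 and 0.168 CPM (counts scaled to library size) in mutants at 12 dpa, against 2.68 and 2.94 CPM in wild type, then 0.234, 0.0696 and 0.0278 CPM in mutants at 14 dpa, against 2.14 and 1.69 CPM in wild type, with no overlap. A pair of mutant libraries needs care. Mutant 12 dpa replicate 3 was the highest of the 10 libraries for 16 of the 44 chemokine genes that could be tested. The same count was not made over all genes, so this is not shown to be particular to chemokine genes. The genotype tag of mutant 14 dpa replicate 1 reads wild type, although its title, its description and its Lmx1b level are those of a mutant, and it was used as a mutant. The tissue contained the epidermis and wound-associated cells along with the mesenchyme: the 13 keratinocyte markers summed to 84969 to 166270 CPM in mutants and 59159 to 81358 CPM in wild type, and the 13 fibroblast and blastema markers to 3007 to 11350 CPM in mutants and 19820 to 36002 CPM in wild type. In such bulk tissue, fewer cells of a type and less RNA per cell cannot be told apart.

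Levels between genes are compared in TPM, a gene's length-corrected share of all transcripts. Cxcl14, a ligand made constitutively by skin epithelium, had the highest level, with a median of 125 TPM over the 10 libraries and a range of 64.9 to 160 TPM. It alone took 43.2% to 69.0% of the summed TPM of the 60 genes. Ccl6, a mouse CC ligand of macrophages and other myeloid cells, followed at a median of 18.4 TPM (9.90 to 44.1 TPM). Next came the scavenging receptor Ackr3 at 10.9 TPM, the membrane-tethered ligand Cx3cl1 at 8.35 TPM, the membrane-tethered ligand Cxcl16 at 5.90 TPM and the stromal ligand Cxcl12 at 5.26 TPM. In all, 16 genes had a median of at least 1 TPM, 22 lay between 0.1 and 1 TPM, and 22 lay under 0.1 TPM. Cxcl17, Xcl1 and Ccl26 had 0 counts in every library.

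**Figure D1:**
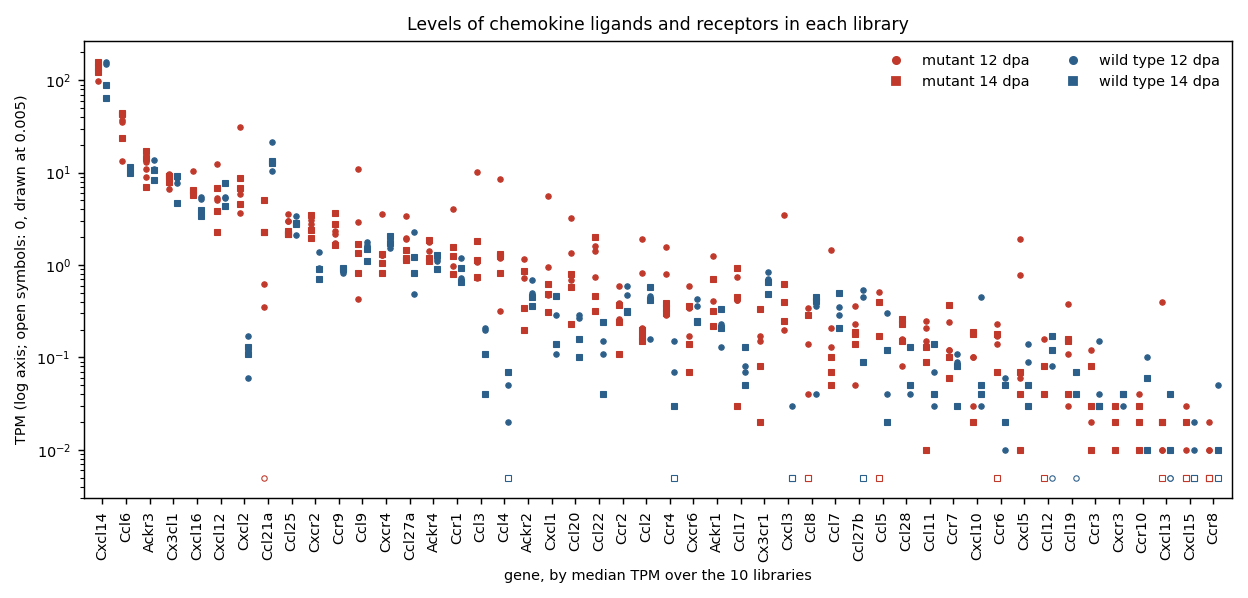
Levels of chemokine ligands and receptors with a median above 0, in TPM on a log axis, with 1 symbol per library, mutants left of wild type, circles for 12 dpa, squares for 14 dpa and open symbols for values of 0. Cxcl14 lies above all other members at 64.9 to 160 TPM, and Cxcl2 and Ccl21a spread over the widest ranges of the well-expressed members.

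Over both days, 11 of the 44 tested chemokine genes were higher and 5 lower in mutants, and 28 did not pass the test. The test was edgeR's quasi-likelihood test on all 20216 genes with enough counts, with Benjamini-Hochberg adjustment over all of them and a threshold of 0.05. Of all genes tested, 21.5% were higher and 22.2% lower, 43.7% in either direction, so the share called among chemokine genes was not above the background. The median log2 fold change was 0.23 for the 44 genes and 0.02 for all genes, but it was -0.04 for the chemokine genes without mutant 12 dpa replicate 3. Ligands made up 8 of the 11 higher genes (Cxcl2, Cxcl3, Ccl3, Ccl4, Ccl6, Ccl17, Ccl20 and Ccl22) and receptors 3 (Cxcr2, Ccr4 and Ccr9). The lower genes were the ligands Ccl21a, Ccl21b and Ccl25 and the receptors Cx3cr1 and Xcr1. On the TPM scale the split was 11 higher and 3 lower with a pseudocount of 1 (78.6% of calls higher), and 12 higher and 3 lower with 0.1 (80%), against 68.8% higher on counts. Of all genes called on that scale, 71.6% and 71.8% were higher with those pseudocounts. That scale moved the median of all genes to 0.14 and 0.26 with those pseudocounts. Protein-coding genes held 27.7% and 33.6% of all TPM in the wild type 14 dpa libraries, against 42.0% to 52.8% in the remaining libraries. The part of this in the split on the TPM scale was not tested.

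Of the 44 tested genes, 33 had enough counts in both genotypes, 7 passed the filter through mutant libraries alone and 4 through wild type libraries alone. Among the 16 called genes, Cxcl3, Ccl4 and Ccl17 passed through mutants alone and Ccl21b and Xcr1 through wild type alone, so their calls do not count as independent of the filter. Without mutant 12 dpa replicate 3, 10 genes were higher and 7 lower. With mutant 14 dpa replicate 1 left out, 10 were higher and 5 lower, and with both left out, 11 were higher and 6 lower, 13 of the calls being shared with the full set.

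**Figure D2:**
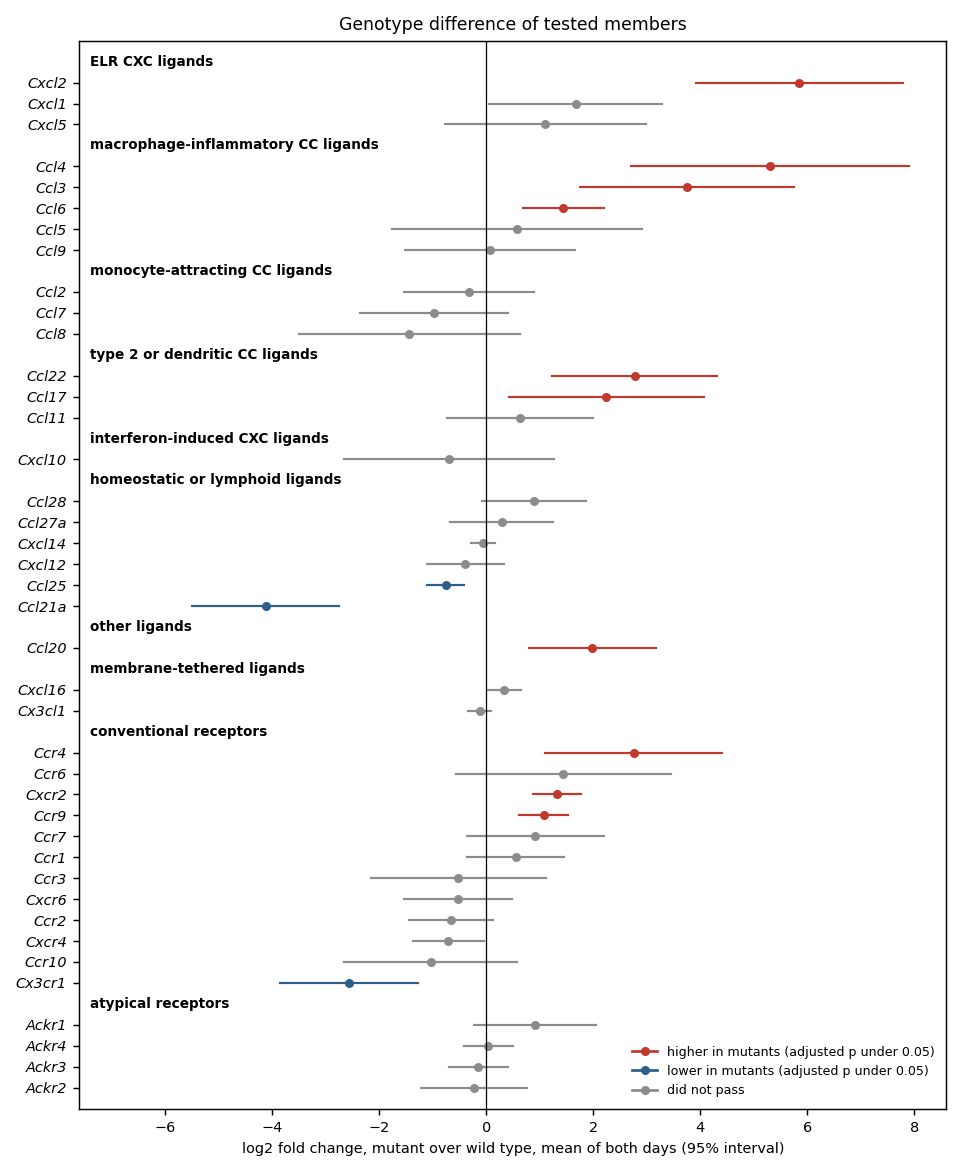
Log2 fold changes of tested chemokine genes, mutant minus wild type over both days, with 95% intervals from edgeR; Cxcl3, Ccl21b and Xcr1, with 3 counts or fewer in a genotype, are not drawn. Cxcl2 lies farthest to the right at 5.85 and Ccl21a farthest to the left at -4.12.

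The ELR ligands, named for a short amino acid motif before their first cysteines, attract neutrophils through Cxcr2. Cxcl2 and Cxcl3 rose in mutants, while Cxcl1 and Cxcl5 did not pass the test over both days. Cxcl2, also known as MIP-2, stood at 2.60, 4.30 and 23.1 CPM in mutants at 12 dpa, against 0.232 and 0.0680 CPM in wild type, then 6.30, 4.94 and 7.97 CPM in mutants at 14 dpa, against 0.190 and 0.0722 CPM in wild type. The lowest mutant library lay above the highest wild type library, and mutant 12 dpa replicate 3 was the highest. Its mean was 8.20 ± 7.51 CPM in mutants (SD, n = 6) and 0.140 ± 0.0829 CPM in wild type (SD, n = 4), a log2 fold change of 5.85 (SE 0.85, edgeR adjusted p = 0.00127). Without mutant 12 dpa replicate 3 the value was 5.07 (adjusted p = 0.000188), and without mutant 14 dpa replicate 1 it was 5.86. Cxcl2 alone made up 1.90%, 2.61% and 11% of the summed chemokine TPM in mutants at 12 dpa, against 0.0736% and 0.0260% in wild type.

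Cxcl3, a close relative of Cxcl2, stood at 0.225, 0.194 and 2.98 CPM in mutants at 12 dpa, against 0.0273 and 0.0136 CPM in wild type, then 0.430, 0.268 and 0.708 CPM in mutants at 14 dpa, against 0 and 0 CPM in wild type. The genotypes did not overlap, but the gene was near its detection limit in wild type. It had 412 counts in mutants and 3 in wild type, a ratio of 84.9 (95% counting interval 28.9 to 414, edgeR adjusted p = 0.00725). Cxcl1 stood at 0.394, 0.814 and 3.93 CPM in mutants at 12 dpa, against 0.382 and 0.0953 CPM in wild type, then 0.299, 0.636 and 0.625 CPM in mutants at 14 dpa, against 0.219 and 0.506 CPM in wild type. The genotypes overlapped at 14 dpa, and the log2 fold change over both days was 1.67 (95% interval 0.06 to 3.29, edgeR adjusted p = 0.0863). Cxcl5 stood at 1.2, 0.0905 and 2.53 CPM in mutants at 12 dpa, against 0.259 and 0.163 CPM in wild type, then 0.0260, 0.129 and 0.0694 CPM in mutants at 14 dpa, against 0.146 and 0.0619 CPM in wild type. It overlapped on both days, with a log2 fold change of 1.10 (95% interval -0.77 to 2.98, edgeR adjusted p = 0.306).

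Cxcl5, Cxcl3, Cxcl15, Cxcl1 and Cxcl2 lie in that order in a cluster on mouse chromosome 5, per RefSeq. The promoters of Cxcl2, Cxcl3 and Cxcl1 are shown because these neighbours share a κB-type motif close to the start of transcription while differing in the size of their change. The longest run of letters common to the 250 bases before the starts of these 3 genes was GGGAATTTCCC, 11 bases. The run was chosen because these 3 genes share it, so its presence in them was fixed in advance. Searched on both strands, this exact run occurs in 14 of 32851 RefSeq promoters (0.0426%). Among the 45 chemokine genes with a promoter entry, only these 3 have it. Other forms of a κB-type site were not searched, so the count does not show whether other chemokine genes have them. Capitals mark it in 180 bases of the plus strand of GRCm38.p6.
Cxcl2, chr5:90903719-90903898: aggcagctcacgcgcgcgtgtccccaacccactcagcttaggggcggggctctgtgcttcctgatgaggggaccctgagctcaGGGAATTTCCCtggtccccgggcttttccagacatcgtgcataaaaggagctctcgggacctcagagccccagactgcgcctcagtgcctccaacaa
Cxcl3, chr5:90785921-90786100: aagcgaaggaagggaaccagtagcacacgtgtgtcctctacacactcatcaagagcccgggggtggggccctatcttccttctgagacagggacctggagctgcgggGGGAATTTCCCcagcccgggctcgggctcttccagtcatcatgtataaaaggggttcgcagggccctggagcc
Cxcl1, chr5:90891065-90891244: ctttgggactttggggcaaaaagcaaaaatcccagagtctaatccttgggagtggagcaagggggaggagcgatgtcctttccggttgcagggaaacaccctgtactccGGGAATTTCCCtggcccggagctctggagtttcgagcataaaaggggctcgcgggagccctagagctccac
The run began 97 bases before the start of Cxcl2, 73 before that of Cxcl3 and 71 before that of Cxcl1. Of these neighbours with the same motif, Cxcl2 and Cxcl3 passed edgeR's test over both days and Cxcl1 did not. Cxcl1 was called by DESeq2, and by edgeR without mutant 12 dpa replicate 1, and Cxcl3 was not called on log2(TPM + 1) (limma adjusted p = 0.111). A match describes the letters in this window and nothing about a factor.

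Cxcr2, the receptor of the ELR ligands on neutrophils and some epithelial cells, also rose. It stood at 9.10, 7.4 and 8.61 CPM in mutants at 12 dpa, against 4.88 and 2.94 CPM in wild type, then 13.1, 9.33 and 7.37 CPM in mutants at 14 dpa, against 3.65 and 3.16 CPM in wild type. All mutant libraries lay above all wild type libraries, and mutant 12 dpa replicate 3 did not stand apart for this gene. The log2 fold change over both days was 1.32 (SE 0.20, edgeR adjusted p = 0.00104), and both days gave a call. At 12 dpa Cxcr2 was higher by 1.10 (SE 0.28, adjusted p = 0.0292), and at 14 dpa by 1.55 (SE 0.29, adjusted p = 0.00534). At 12 dpa this rested on mutant replicate 1 (adjusted p = 0.0706 without it), mutant replicate 3 (0.0591) and wild type replicate 2 (0.189), and at 14 dpa on wild type replicate 2 (0.0526). Cxcr1, the other receptor of this kind, was at or below 0.0200 TPM in every library.

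Neutrophil markers moved in part with these genes. Of 12 listed markers 9 could be tested, and S100a8, S100a9 and Csf3r rose, of which keratinocytes also make S100a8 and S100a9. At 14 dpa S100a8 and S100a9 rose and the granule protein genes Camp, Ngp and Ltf fell, the median of the 9 being -0.025. The same median log2 fold change was 3.77 on the earlier day, when 3 of the 9 rose and 0 fell. With the days averaged it was 1.67. Among all tested genes 21.5% rose and 22.2% fell over both days, 7.18% and 9.34% at 12 dpa, and 16.1% and 17.2% at 14 dpa. The sum of the list was 801, 422 and 1444 CPM in mutants at 12 dpa, against 159 and 233 CPM in wild type, and 92.9, 185 and 297 CPM in mutants at 14 dpa, against 72.4 and 139 CPM in wild type, with overlap at 14 dpa. Of the listed markers, Ly6g, Mpo and Elane were at or near 0, with at most 0.101 CPM for Ly6g and 0 counts for Elane. The summed ELR ligands stood at 4.49, 5.41 and 32.5 CPM in mutants at 12 dpa, against 0.927 and 0.395 CPM in wild type, then 7.06, 6.03 and 9.37 CPM in mutants at 14 dpa, against 0.569 and 0.650 CPM in wild type, with no overlap. Most of the mutant sum at 14 dpa was Cxcl2, at 6.30, 4.94 and 7.97 CPM, while Cxcl1 and Cxcl5 overlapped between genotypes on that day. The part of neutrophil and keratinocyte number in the ELR ligands and Cxcr2 was not tested.

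**Figure D3:**
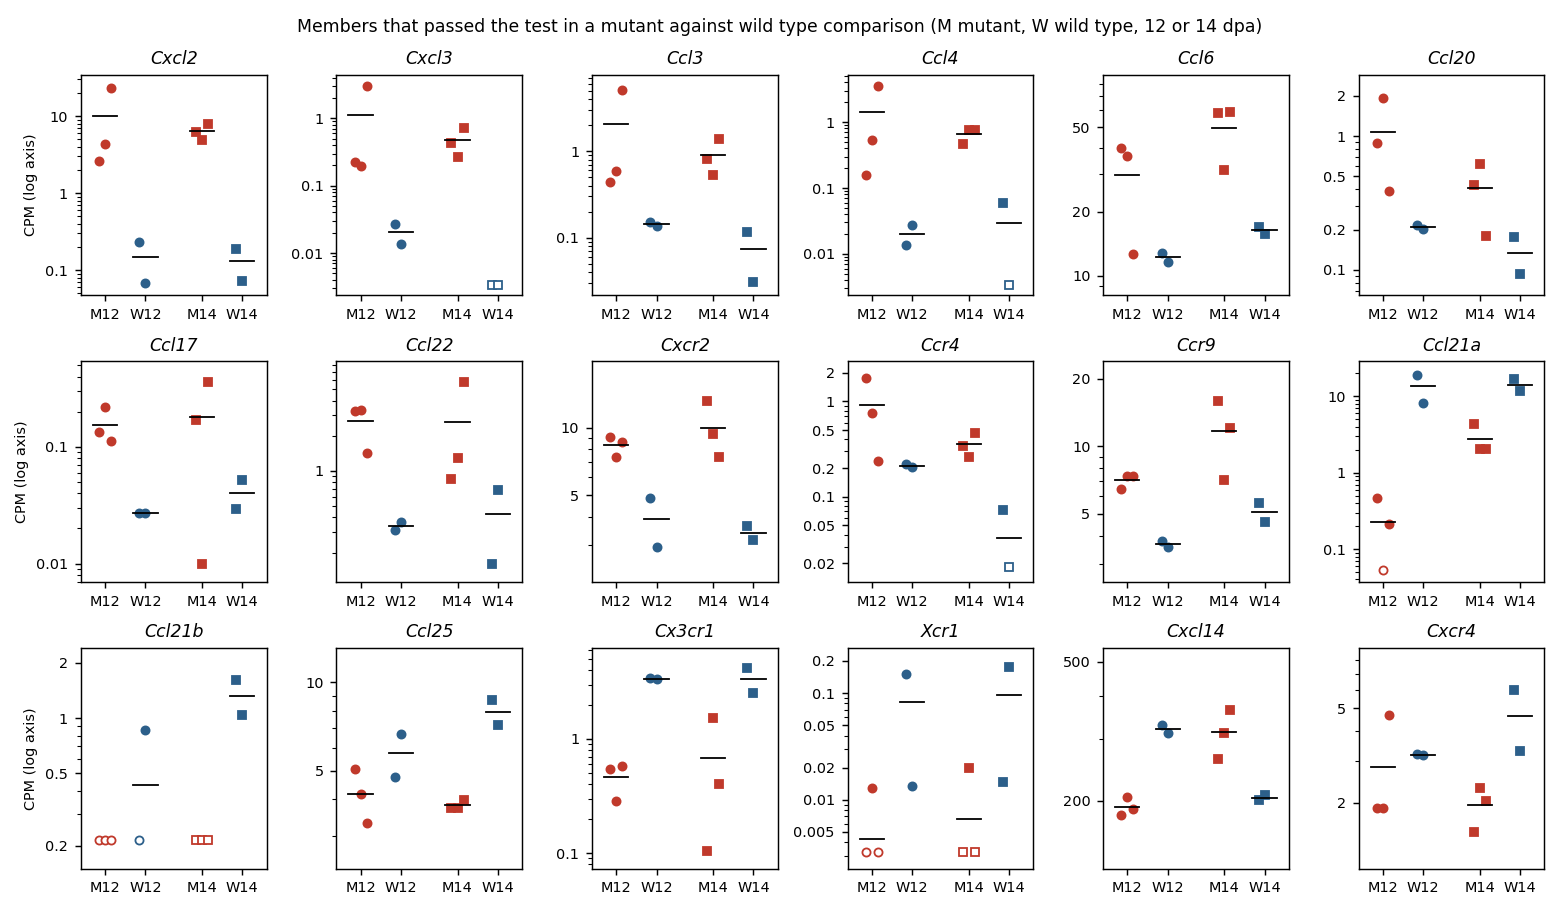
CPM, on log axes, of the 16 chemokine genes called over both days and of Cxcl14 and Cxcr4, which were called on single days; each symbol is 1 library, bars are group means, and open symbols stand for 0, drawn below the lowest value above 0. Cxcl2 and Cxcr2 show mutants above wild type on both days, Ccl21a and Cx3cr1 mutants below, and Cxcl14 is below wild type at 12 dpa and above it at 14 dpa.

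The macrophage-inflammatory CC ligands Ccl3, Ccl4 and Ccl6 rose, while Ccl5 and Ccl9 did not pass the test. Ccl3 (MIP-1 alpha), which draws monocytes and T cells through Ccr1 and other receptors, stood at 0.439, 0.594 and 5.16 CPM in mutants at 12 dpa, against 0.150 and 0.136 CPM in wild type. At 14 dpa the values were 0.820, 0.537 and 1.37 CPM in mutants and 0.117 and 0.0310 CPM in wild type. The genotypes did not overlap, and mutant 12 dpa replicate 3 was the highest library, at 9.98 times the mean of the other two mutant 12 dpa libraries. The log2 fold change over both days was 3.75 (SE 0.88, edgeR adjusted p = 0.00909), or 2.75 (adjusted p = 0.00241) without that library. Ccl4 (MIP-1 beta), a close relative of Ccl3, stood at 0.158, 0.530 and 3.5 CPM in mutants at 12 dpa, against 0.0136 and 0.0272 CPM in wild type, then 0.469, 0.756 and 0.750 CPM in mutants at 14 dpa, against 0.0584 and 0 CPM in wild type. It likewise showed no overlap and a peak in that library. Its log2 fold change was 5.30 (SE 1.14, edgeR adjusted p = 0.00630) with that library and 4.28 without it. At 12 dpa Ccl4 had 368 counts in mutants and 3 in wild type, a ratio of 70.5 (95% counting interval 23.9 to 343, edgeR adjusted p = 0.0410). The 12 dpa call was lost, with adjusted p of 0.0545 to 0.188, when either wild type 12 dpa library or any of the 3 mutant 14 dpa libraries was left out.

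Ccl6 showed the opposite pattern within the mutants. It stood at 40.1, 36.6 and 12.7 CPM in mutants at 12 dpa, against 12.8 and 11.6 CPM in wild type, then 58.5, 31.6 and 58.9 CPM in mutants at 14 dpa, against 17 and 15.7 CPM in wild type. Mutant 12 dpa replicate 3 lay among the wild type libraries, and the other 5 mutant libraries lay above all of wild type. The log2 fold change over both days was 1.44 (SE 0.33, edgeR adjusted p = 0.00884), and it was 1.62 (adjusted p = 0.000603) without that library. At 14 dpa it was 1.60 (SE 0.47, adjusted p = 0.0328), a call lost (adjusted p of 0.0502 to 0.165) without any 1 of the wild type libraries or of mutant 14 dpa replicates 1 and 3. Ccl9, a neighbour of Ccl6 that also acts on Ccr1, stood at 3.73, 0.969 and 16.5 CPM in mutants at 12 dpa, against 5.70 and 5.62 CPM in wild type, then 1.24, 3.33 and 4.69 CPM in mutants at 14 dpa, against 3.28 and 3.76 CPM in wild type. The groups overlapped, with a log2 fold change of 0.07 (95% interval -1.52 to 1.65, edgeR adjusted p = 0.947). Ccl5 (RANTES) stayed between 0 and 0.159 CPM in mutants and between 0.0136 and 0.123 CPM in wild type, with a log2 fold change of 0.58 (95% interval -1.77 to 2.92, edgeR adjusted p = 0.680).

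Ccr1, a receptor of Ccl3 and Ccl6, did not pass the test. It stood at 3.73, 2.62 and 10.3 CPM in mutants at 12 dpa, against 4.29 and 2.35 CPM in wild type, then 2.80, 4.53 and 5.86 CPM in mutants at 14 dpa, against 3.25 and 3.56 CPM in wild type. Its groups overlapped, and its log2 fold change was 0.55 (95% interval -0.36 to 1.46, edgeR adjusted p = 0.291). Of the 14 monocyte and macrophage markers, 6 fell over both days and none rose, where 22.2% of all genes fell and 21.5% rose. Adgre1 (F4/80) and the complement genes C1qa, C1qb and C1qc were among those that fell. By day, 1 marker fell at 12 dpa and 3 at 14 dpa, where 9.34% and 17.2% of all genes fell. The sum of the 14 markers was 72.7, 62.2 and 175 CPM in mutants at 12 dpa, against 112 and 124 CPM in wild type. At 14 dpa the sum was 52.9, 99.6 and 83.9 CPM in mutants, against 140 and 111 CPM in wild type. It was highest in mutant 12 dpa replicate 3, the library with the highest Ccl3, Ccl4, Ccl9 and Ccr1, in which the sum of the 8 osteoclast markers was also highest at 1737 CPM, against 407 and 365 CPM in the other two mutant libraries and 473 and 564 CPM in the wild type libraries of that day. The osteoclast list shares Mmp9 with the neutrophil list, whose sum was also highest in this library, at 1444 CPM. Whether monocytes, macrophages or osteoclasts account for Ccl3, Ccl4 and Ccl9 was not tested.

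Ccl17 and Ccl22, ligands of Ccr4 made by dendritic and Langerhans cells, and Ccr4 itself were higher in mutants. Ccl22 stood at 3.25, 3.32 and 1.43 CPM in mutants at 12 dpa, against 0.313 and 0.367 CPM in wild type, then 0.846, 1.28 and 5.76 CPM in mutants at 14 dpa, against 0.160 and 0.691 CPM in wild type. Every mutant library lay above every wild type library, and the log2 fold change was 2.78 (SE 0.68, edgeR adjusted p = 0.0107). Ccl17 stood at 0.135, 0.220 and 0.112 CPM in mutants at 12 dpa, against 0.0273 and 0.0272 CPM in wild type, then 0.169, 0.00994 and 0.361 CPM in mutants at 14 dpa, against 0.0292 and 0.0516 CPM in wild type. Mutant 14 dpa replicate 2 lay below all wild type libraries. On the log2 scale it differed by 2.25 (SE 0.82, edgeR adjusted p = 0.0482), and this call was lost without any 1 of the other 9 libraries, with an adjusted p of up to 0.128.

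Ccr4, a receptor of skin-homing T cells, stood at 1.76, 0.762 and 0.235 CPM in mutants at 12 dpa, against 0.218 and 0.204 CPM in wild type, then 0.339, 0.259 and 0.472 CPM in mutants at 14 dpa, against 0.0729 and 0 CPM in wild type. The genotypes did not overlap, although the lowest mutant library at 12 dpa was close to wild type. The fitted log2 fold change was 2.75 (SE 0.74, edgeR adjusted p = 0.0142), with an adjusted p of 0.0516 without wild type 12 dpa replicate 2. At 14 dpa alone it was 3.4 (SE 1.15, adjusted p = 0.0468), and this call was lost, with adjusted p of 0.0560 to 0.215, without mutant 12 dpa replicate 2, either wild type 12 dpa library, any mutant 14 dpa library or wild type 14 dpa replicate 2. The 9 Langerhans and dendritic cell markers that are no chemokine genes summed to 405, 184 and 221 CPM in mutants at 12 dpa, against 149 and 117 CPM in wild type, then 344, 345 and 368 CPM in mutants at 14 dpa, against 130 and 151 CPM in wild type. Over both days 7 of these markers rose, among them Cd207 (langerin), Cd74 and the class II gene H2-Ab1, and Zbtb46 fell. The 9 tested T and NK cell markers held 2 that rose, Cd3g and Il7r. Of all genes, 21.5% rose and 22.2% fell. The part of dendritic, Langerhans and T cells in the Ccr4 axis was not tested.

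Ccl20, made by inflamed epithelium and recognised by Ccr6 on dendritic cells and T cells, rose as well. It stood at 0.889, 1.93 and 0.392 CPM in mutants at 12 dpa, against 0.218 and 0.204 CPM in wild type, then 0.430, 0.616 and 0.180 CPM in mutants at 14 dpa, against 0.175 and 0.0929 CPM in wild type. The genotypes did not overlap within a day, although mutant 14 dpa replicate 3 barely exceeded the higher wild type library. Mutant minus wild type, the log2 fold change was 1.98 (SE 0.53, edgeR adjusted p = 0.0137), with an adjusted p of 0.0506 without wild type 12 dpa replicate 2 and 0.0636 without wild type 14 dpa replicate 2. Ccr6 stood at 0.0901, 0.181 and 0.0336 CPM in mutants at 12 dpa, against 0.0273 and 0.0136 CPM in wild type, then 0, 0.149 and 0.125 CPM in mutants at 14 dpa, against 0.0292 and 0.0825 CPM in wild type. Its groups overlapped at 14 dpa, and the log2 fold change was 1.44 (95% interval -0.56 to 3.44, edgeR adjusted p = 0.216).

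The constitutive or lymphoid ligands held 3 genes that fell and none that rose over both days, among 7 tested. Of all genes, 22.2% fell and 21.5% rose. The 3 falls are not independent results: Ccl21b passed the filter through wild type libraries alone and is a near-identical copy of Ccl21a. Ccl25, the third, was not called on the TPM scale. Ccl21a, a ligand of Ccr7 made by lymphatic endothelium that guides dendritic cells to lymph nodes, stood at 0.462, 0 and 0.213 CPM in mutants at 12 dpa, against 19.2 and 8.27 CPM in wild type. At 14 dpa the values were 4.35, 2.02 and 2.05 CPM in mutants and 16.7 and 11.7 CPM in wild type. The genotypes did not overlap, and the mutants were lower at 12 than at 14 dpa. The log2 fold change was -4.12 over both days (SE 0.60, edgeR adjusted p = 0.00132). By day it was -5.89 at 12 dpa (SE 0.92, adjusted p = 0.00608) and, less precisely, -2.34 at 14 dpa (SE 0.78, adjusted p = 0.0493). The 14 dpa call was lost, with adjusted p of 0.0629 to 0.201, without any 1 of the 5 libraries of that day, either wild type 12 dpa library or mutant 12 dpa replicate 3. In TPM, Ccl21a took 0% to 0.323% of the summed chemokine level in mutants at 12 dpa, against 9.37% and 4.54% in wild type, and 0.818% to 2.27% in mutants at 14 dpa, against 10.6% and 7.84% in wild type.

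Ccl21b, a near-identical copy of Ccl21a, was listed at 0 in all 6 mutant libraries and in wild type 12 dpa replicate 1, and at 0.857 CPM in wild type 12 dpa replicate 2. The wild type 14 dpa libraries had 1.60 and 1.04 CPM. With 0 counts in mutants and 274 in wild type it was at least 148-fold lower against a floor of 3 counts over the mutants (edgeR adjusted p = 0.0199), and at 14 dpa, with 0 and 211 counts, at least 106-fold lower (adjusted p = 0.0486). The call over both days needed wild type 12 dpa replicate 2 (adjusted p = 0.9999 without it) and each wild type 14 dpa library (0.0775 and 0.0676 without replicates 1 and 2), and the 14 dpa call needed each library of that day (0.0796 to 0.175). Reads of these copies cannot be assigned with certainty. With their counts summed, an alternative chosen after seeing the data, the log2 fold change was -4.20 over both days (edgeR adjusted p = 0.00113).

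Ccr7, the receptor of Ccl21a, did not pass the test: it stood at 0.484, 0.220 and 0.201 CPM in mutants at 12 dpa, against 0.259 and 0.204 CPM in wild type, then 0.130, 0.249 and 0.930 CPM in mutants at 14 dpa, against 0.102 and 0.206 CPM in wild type. The groups overlapped, and the log2 fold change was 0.92 (95% interval -0.37 to 2.21, edgeR adjusted p = 0.218). Ccl19, the other Ccr7 ligand, had too few counts to be tested, at 0.0113 to 0.157 CPM in mutants and 0 to 0.0729 CPM in wild type. Of the 6 lymphatic endothelial markers 5 fell over both days, where 22.2% of all genes fell. Flt4 (VEGFR3), Lyve1 and Prox1 were among the 5, and Pdpn did not pass the test. The list summed to 10.3, 8.58 and 18.5 CPM in mutants at 12 dpa, against 48.1 and 44.3 CPM in wild type, then 14.8, 12.8 and 11.6 CPM in mutants at 14 dpa, against 65.1 and 46.9 CPM in wild type, with no overlap on either day. The part of lymphatic endothelium in the Ccl21a difference was not tested.

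**Figure D4:**
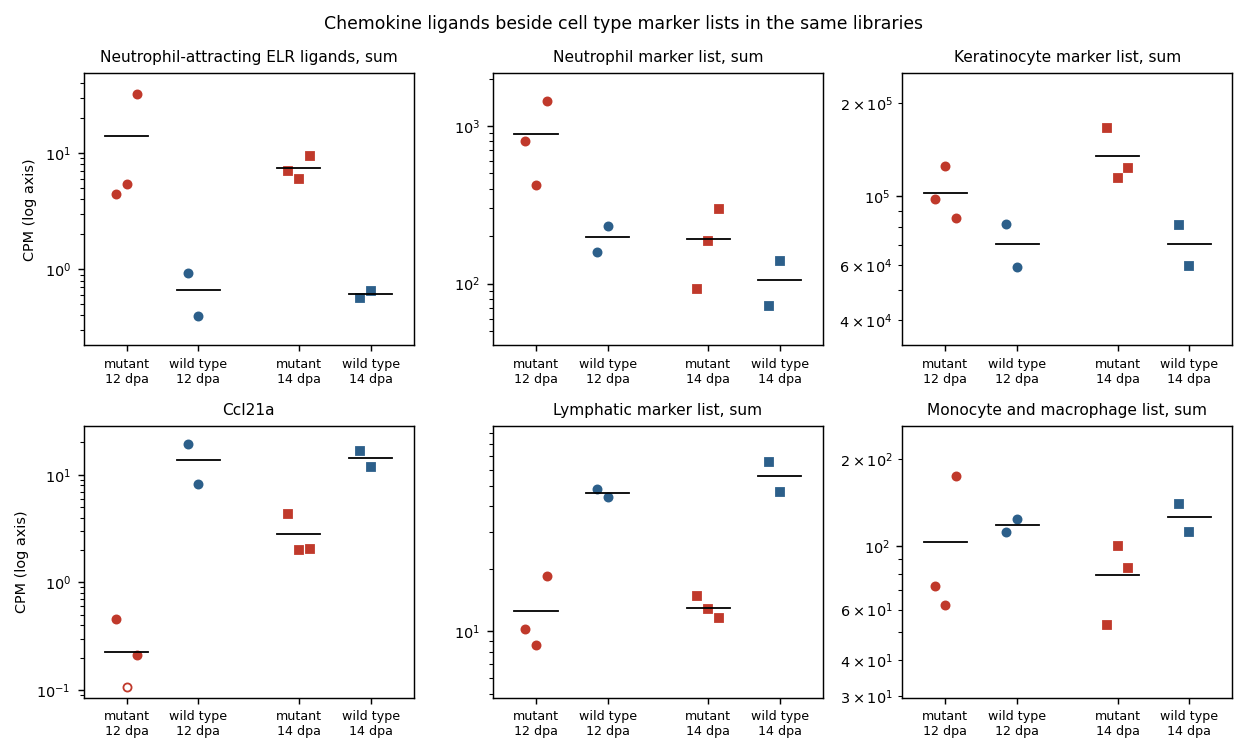
Summed CPM, on log axes, of the ELR ligands beside the neutrophil and keratinocyte marker lists, and of Ccl21a beside the lymphatic endothelial and the monocyte and macrophage lists; each symbol is 1 library and bars are group means. Ccl21a and the lymphatic list are lower in mutants on both days. The neutrophil list overlaps between genotypes at 14 dpa, while the ELR sum, most of it Cxcl2 in mutants, does not.

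Ccl25 and its receptor Ccr9, which guide T cells to the thymus and the small intestine, moved in opposite directions. Ccl25 stood at 5.06, 4.17 and 3.31 CPM in mutants at 12 dpa, against 4.77 and 6.68 CPM in wild type, then 3.72, 3.73 and 3.97 CPM in mutants at 14 dpa, against 8.71 and 7.13 CPM in wild type. The genotypes overlapped at 12 dpa and were apart at 14 dpa. The log2 fold change was -0.75 over both days (SE 0.16, edgeR adjusted p = 0.00422) and -1.06 at 14 dpa (SE 0.22, adjusted p = 0.00789), a value whose adjusted p was 0.0648 with wild type 14 dpa replicate 1 left out. This fall depended on the scale: on log2(TPM + 1) it was -0.04 over both days (limma adjusted p = 0.805). Protein-coding genes held the smallest share of all TPM in the wild type 14 dpa libraries. In TPM, Ccl25 stood at 3.56, 2.98 and 2.98 in mutants at 12 dpa, against 2.12 and 3.4 in wild type, then 2.33, 2.15 and 2.19 in mutants at 14 dpa, against 2.80 and 2.87 in wild type.

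Ccr9 stood at 6.45, 7.39 and 7.35 CPM in mutants at 12 dpa, against 3.79 and 3.55 CPM in wild type, then 16.0, 7.09 and 12.1 CPM in mutants at 14 dpa, against 5.59 and 4.58 CPM in wild type. All mutant libraries lay above all wild type libraries, the highest being mutant 14 dpa replicate 1. edgeR put the log2 fold change at 1.07 over both days (SE 0.21, edgeR adjusted p = 0.00302) and 1.2 at 14 dpa (SE 0.29, adjusted p = 0.0140). Without mutant 14 dpa replicate 1 the value over both days was 0.93 (adjusted p = 0.00342). With wild type 14 dpa replicate 1 or 2 left out, the 14 dpa value had an adjusted p of 0.0571 or 0.109. The 4 gamma delta and epidermal T cell markers found summed to 9.46 to 21.8 CPM in mutants and 4.45 to 6.61 CPM in wild type, without overlap and highest in mutant 14 dpa replicate 1. Only 3 of these markers could be tested. Over both days 1 of them rose and 2 did not pass, where 21.5% of all genes rose and 22.2% fell. The part of gamma delta and epidermal T cells in Ccr9 was not tested.

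The receptors Cx3cr1 and Xcr1, which mark monocyte-derived and resident macrophages and cross-presenting dendritic cells, fell. Cx3cr1 stood at 0.540, 0.284 and 0.582 CPM in mutants at 12 dpa, against 3.39 and 3.33 CPM in wild type, then 0.104, 1.52 and 0.403 CPM in mutants at 14 dpa, against 4.16 and 2.52 CPM in wild type. All mutant libraries lay below all wild type libraries. Over both days Cx3cr1 differed by -2.56 on the log2 scale (SE 0.57, edgeR adjusted p = 0.00714). At 12 dpa it was -2.83 (SE 0.81, adjusted p = 0.0457), a call lost, with adjusted p of 0.0602 to 0.150, without any 1 library other than mutant 14 dpa replicates 1 and 2. The fall of Cx3cr1 stands beside that of 6 of 14 monocyte and macrophage markers over both days, where 22.2% of all genes fell. On single days 1 of the 14 fell at 12 dpa and 3 at 14 dpa, against 9.34% and 17.2% of all genes. Their sum overlapped at 12 dpa and was highest in mutant 12 dpa replicate 3, in which Cx3cr1 was low at 0.582 CPM. The part of these cells in the fall of Cx3cr1 was not tested.

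Cx3cl1 (fractalkine), the ligand of Cx3cr1, did not pass the test: it stood at 19.7, 23.9 and 23.1 CPM in mutants at 12 dpa, against 26.1 and 30.6 CPM in wild type, then 31.3, 27.5 and 29.0 CPM in mutants at 14 dpa, against 24.8 and 29.6 CPM in wild type. Mutants were below wild type at 12 dpa, the genotypes overlapped at 14 dpa, and the log2 fold change over both days was -0.12 (95% interval -0.33 to 0.09, edgeR adjusted p = 0.314). Xcr1 was near its detection limit, at 0, 0.0129 and 0 CPM in mutants at 12 dpa, against 0.150 and 0.0136 CPM in wild type, then 0, 0.0199 and 0 CPM in mutants at 14 dpa, against 0.0146 and 0.175 CPM in wild type. With 3 counts in mutants and 30 in wild type, the ratio of wild type over mutants was 16.2 (95% counting interval 5.03 to 82.8, edgeR adjusted p = 0.0231). Wild type 12 dpa replicate 1 and wild type 14 dpa replicate 2 carried it, and with the one or the other left out the adjusted p was 0.265 or 0.277. Its ligand Xcl1 had 0 counts in every library.

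Cxcl14, the chemokine gene with the highest level, differed from wild type in opposite directions on the 2 days. It stood at 182, 204 and 189 CPM in mutants at 12 dpa, against 330 and 312 CPM in wild type, then 264, 313 and 365 CPM in mutants at 14 dpa, against 200 and 207 CPM in wild type. Mutants lay below wild type at 12 dpa and above it at 14 dpa, with no overlap on either day. The mean was 192 ± 11.4 CPM in mutants (SD, n = 3) and 321 ± 12.9 CPM in wild type (SD, n = 2) at 12 dpa, a log2 fold change of -0.74 (SE 0.14, edgeR adjusted p = 0.00966). At 14 dpa it was 314 ± 50.5 CPM in mutants and 204 ± 5.0 CPM in wild type, a log2 fold change of 0.62 (SE 0.15, edgeR adjusted p = 0.0124). Each of these calls was lost without either wild type library of its day, with adjusted p of 0.0531 and 0.0546 at 12 dpa and 0.0803 and 0.0808 at 14 dpa. On log2(TPM + 1) the 12 dpa value was -0.41 (limma adjusted p = 0.130), while the 14 dpa value stayed past the threshold. Over both days the value was -0.06 (SE 0.10, edgeR adjusted p = 0.650).

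Whether the genotype difference itself changed between days was tested directly. For Cxcl14 it was 1.37 on the log2 scale (unadjusted p = 6.1e-05), which did not pass edgeR's adjustment over all genes (adjusted p = 0.544) but passed that of DESeq2. Of the 44 chemokine genes 0 passed edgeR's test of this difference and 5 had an unadjusted p under 0.05, the others being Ccl21a, Ccl2, Cx3cl1 and Ccl7. None of the 20216 genes passed it (0%), and 1763 had an unadjusted p under 0.05. DESeq2 called 1 chemokine gene, Cxcl14, and 48 of all 20216 genes. The marker list of keratinocytes, a source of Cxcl14 in skin, was higher in mutants on both days, at 97914, 124920 and 84969 CPM in mutants at 12 dpa, against 81358 and 59159 CPM in wild type, then 166270, 114520 and 123390 CPM in mutants at 14 dpa, against 81040 and 59512 CPM in wild type. Its part in the Cxcl14 differences was not tested.

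**Figure D5:**
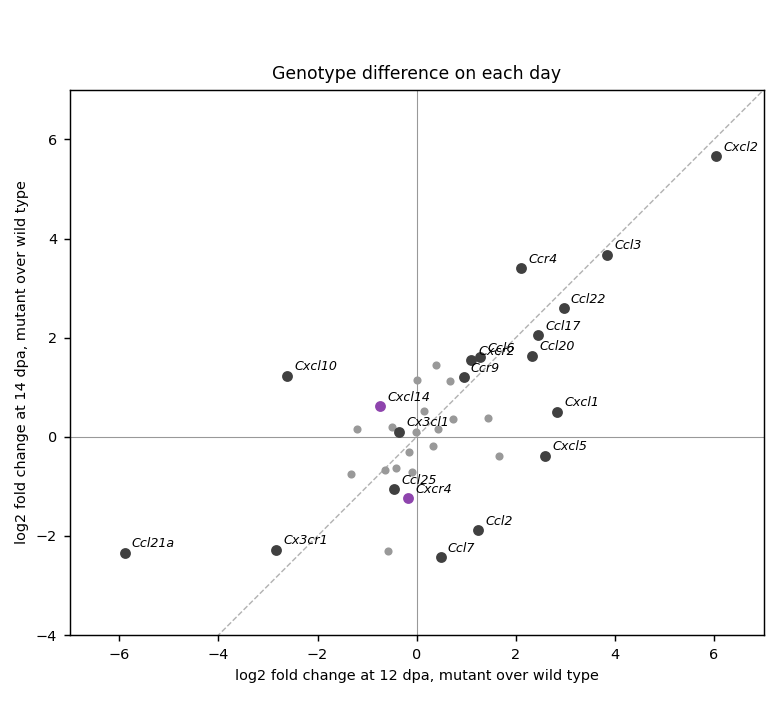
Log2 fold changes of tested chemokine genes, mutant minus wild type, at 12 dpa on the horizontal and 14 dpa on the vertical axis, with the dashed line marking equal values; Cxcl3, Ccl4, Ccl21b, Ccr6 and Xcr1, with 3 counts or fewer in a group, are not drawn. Cxcl14 lies on opposite sides of 0 on the axes, at -0.74 and 0.62, and Ccl21a lies above the line.

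By day, 3 chemokine genes were higher (Cxcl2, Ccl4 and Cxcr2) and 3 lower (Ccl21a, Cx3cr1 and Cxcl14) in mutants at 12 dpa, where 7.18% of all tested genes were higher and 9.34% lower (16.5% in either direction). At 14 dpa 7 were higher (Cxcl2, Cxcl3, Ccl6, Cxcl14, Cxcr2, Ccr4 and Ccr9) and 4 lower (Ccl21a, Ccl21b, Ccl25 and Cxcr4), where 16.1% of all genes were higher and 17.2% lower (33.3% in either direction). The median log2 fold change of the 44 genes was 0.39 at 12 dpa and 0.18 at 14 dpa, against 0.03 and -0.0022 for all genes. Cxcl2 passed on each day, by 6.05 (SE 1.2, edgeR adjusted p = 0.0148) on the earlier and by 5.66 (SE 1.19, edgeR adjusted p = 0.0106) on the later. With 1 wild type library of the day left out, Cxcl2 no longer passed: the adjusted p was 0.0638 without replicate 1 and 0.114 without replicate 2 at 12 dpa, and 0.0611 and 0.0840 at 14 dpa. With limma-voom it passed on neither day (adjusted p = 0.0887 and 0.0541), and with only the libraries of 12 dpa fitted its 12 dpa adjusted p was 0.0614. At 14 dpa Cxcl3 had 111 counts in mutants and 0 in wild type, at least 24.5-fold higher against a floor of 3 counts over the wild type libraries (edgeR adjusted p = 0.0382). That call was lost, with adjusted p of 0.0606 to 0.149, without any 1 of the wild type libraries or of mutant 14 dpa replicates 1 and 3. With mutant 12 dpa replicate 3 and mutant 14 dpa replicate 1 both left out, 7 genes were higher at 12 dpa and 11 at 14 dpa.

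Every mutant library of a day lay above every wild type library of that day, on both days, for 9 genes: Cxcl2, Cxcl3, Ccl3, Ccl4, Ccl20, Ccl22, Cxcr2, Ccr4 and Ccr9. The reverse held for 2, Ccl21a and Cx3cr1. Among all tested genes the shares were 18% and 19.3% (37.2% in either direction). At 12 dpa alone 13 genes lay wholly above and 6 wholly below wild type, against 25.7% and 26% of all genes (51.7% in either direction). At 14 dpa alone 13 lay above and 8 below, against 30.8% and 31.6% of all genes (62.4% in either direction). Without regard to day, 8 genes were higher in all 6 mutant than in all 4 wild type libraries, Ccl20 being the exception, and 2 were lower, against 13.8% and 15.9% of all genes (29.7% in either direction).

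Within a genotype, no chemokine gene passed edgeR's test between the days. In mutants, 14 minus 12 dpa, 0 of 44 chemokine genes passed edgeR's test, 8 had an unadjusted p under 0.05, and DESeq2 called 3 (Cxcl14, Cx3cl1 and Ccl21a); of all genes 0.0346% passed, 0.0148% higher and 0.0198% lower. In wild type 0 passed, 1 had an unadjusted p under 0.05 (Cxcl14), DESeq2 called 0, and of all genes 0% passed. Among all 20216 genes, 3803 had an unadjusted edgeR p under 0.05 in mutants and 1654 in wild type. For Cxcl14 the change was 0.71 in mutants (unadjusted p = 0.00029) and -0.66 in wild type (unadjusted p = 0.0021). Ccl21a differed by 3.60 in mutants (unadjusted p = 0.0024) and 0.05 in wild type (unadjusted p = 0.95).

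Cxcr4 and Cxcl12 form the axis that retains blood cells in bone marrow and guides endothelial and stromal cells. Cxcr4 stood at 1.91, 1.90 and 4.68 CPM in mutants at 12 dpa, against 3.22 and 3.17 CPM in wild type, then 1.51, 2.32 and 2.04 CPM in mutants at 14 dpa, against 5.97 and 3.31 CPM in wild type. Mutant 12 dpa replicate 3 lay above wild type of its day, while the remaining mutant libraries lay below all 4 wild type libraries. The log2 fold change was -1.24 at 14 dpa (SE 0.42, edgeR adjusted p = 0.0457) and -0.71 over both days (95% interval -1.37 to -0.04, adjusted p = 0.0784). The 14 dpa call was lost, with adjusted p of 0.0536 to 0.319, without any 1 of the 4 wild type or the 3 mutant 14 dpa libraries. Without mutant 12 dpa replicate 3 Cxcr4 was called over both days. Cxcl12 stood at 14.6, 14.1 and 30.7 CPM in mutants at 12 dpa, against 20.3 and 21.8 CPM in wild type, then 8.54, 24.1 and 14.4 CPM in mutants at 14 dpa, against 22.2 and 28.8 CPM in wild type. It overlapped on both days, with a log2 fold change of -0.39 (95% interval -1.11 to 0.33, edgeR adjusted p = 0.341). All 12 blood endothelial markers fell over both days, where 22.2% of all genes fell. The sum of the 12 markers was 58.7 to 123 CPM in mutants and 288 to 359 CPM in wild type. The part of blood endothelium in Cxcr4 was not tested.

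The atypical receptors gave no call. Ackr3, which scavenges Cxcl12, ran from 25.5 to 66.9 CPM in mutants and from 35.4 to 50.9 CPM in wild type, with a log2 fold change of -0.15 (95% interval -0.70 to 0.41, edgeR adjusted p = 0.650). Ackr4, which clears Ccl21 and Ccl25, was at 0.04 (95% interval -0.42 to 0.50, edgeR adjusted p = 0.892). Ackr2, a scavenger of inflammatory CC ligands, and Ackr1, which presents chemokines on venules, were at -0.23 and 0.92 (adjusted p = 0.701 and 0.169).

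Other members that did not pass edgeR's test in any genotype comparison were the monocyte-attracting ligands Ccl2, Ccl7 and Ccl8, the eosinophil attractant Ccl11, the interferon-induced Cxcl10, the skin and mucosal ligands Ccl27a and Ccl28, the membrane-tethered Cxcl16 and the receptors Ccr2, Ccr3, Ccr10 and Cxcr6. Ccl2 (MCP-1) stood at 0.552, 0.129 and 1.06 CPM in mutants at 12 dpa, against 0.368 and 0.122 CPM in wild type, then 0.117, 0.159 and 0.139 CPM in mutants at 14 dpa, against 0.686 and 0.351 CPM in wild type, lower without overlap on the later day. Its difference between days was -3.12 (unadjusted p = 0.019, not past adjustment). Ccl7 had the same arrangement at 14 dpa, at 0.0391, 0.0795 and 0.0555 CPM in mutants and 0.233 and 0.413 CPM in wild type. Cxcl16 ran from 13.3 to 22.0 CPM in mutants and 12.0 to 16.4 CPM in wild type, a log2 fold change of 0.34 (95% interval 0.02 to 0.66, edgeR adjusted p = 0.0787). On the TPM scale, where wild type 14 dpa libraries had the smallest protein-coding share, limma called Cxcl16 higher over both days with either pseudocount. With 1 library left out, edgeR called Cxcl16 over both days without mutant 12 dpa replicate 2, Ccl7 without mutant 12 dpa replicate 3, Ccl8 without mutant 14 dpa replicate 2 and Ccl27a without wild type 12 dpa replicate 2. The 16 members with too few counts to test included Cxcl9 and Cxcl11, the Th1 receptor Cxcr3, Cxcl13 with its receptor Cxcr5, Ccl1 with its receptor Ccr8, the eosinophil ligands Ccl24 and Ccl26, and Ccl12, Ccl19, Ccl27b, Cxcl15, Cxcl17, Xcl1 and Cxcr1.

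Genes beside the symbol rule were drawn from lists of related and downstream genes. Of 7 other chemokine-family genes, Ccrl2, a non-signalling receptor that binds chemerin, rose by 1.90 (SE 0.55, edgeR adjusted p = 0.0192), Cmklr1, the chemerin receptor, fell by 1.48 (SE 0.28, edgeR adjusted p = 0.00285), and 5 were not called, among them the platelet chemokine Pf4 at -1.31 (adjusted p = 0.0506). Of 40 genes of chemokine receptor signalling, 10 rose, 8 fell and 22 did not pass, with a median of 0.14 against 0.02 for all genes, a share called near the 43.7% of all genes. Ptk2b, the calcium-activated kinase Pyk2, rose by 1.18 (SE 0.11, edgeR adjusted p = 0.000117), and the receptor kinase Grk3 by 0.78 (SE 0.15, edgeR adjusted p = 0.00333). Rgs16, which shortens G protein signalling, fell by 2.35 (SE 0.27, edgeR adjusted p = 0.000267), the receptor kinase Grk5 by 1.62 (SE 0.28, adjusted p = 0.00190) and Elmo1, a Rac activator partner, by 1.2 (SE 0.19, adjusted p = 0.00127). The inhibitory G protein subunit Gnai2 was at -0.16 (adjusted p = 0.235) and the leukocyte GTPase Rac2 at -0.07 (adjusted p = 0.941).

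Members that lie side by side on a chromosome, in RefSeq order, did not all receive the same call. No test of blocks was run. On chromosome 5, Cxcl5, Cxcl3, Cxcl1 and Cxcl2 all had positive log2 fold changes, and Cxcl3 and Cxcl2 were called higher. On chromosome 4, Ccl21a and Ccl21b were both called lower. On chromosome 11, Ccl6, Ccl3 and Ccl4 were called higher and their neighbour Ccl9 was not called, while Ccl2, Ccl7, Ccl11 and Ccl8 gave no call over both days. On chromosome 8, Ccl22 and Ccl17 were called higher and Cx3cl1, between them, was at -0.12. On chromosome 9, Ccr9 was called higher and Xcr1 lower, while Cxcr6, Ccr1, Ccr3 and Ccr2 near them gave no call over both days.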

How the data were processed

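The authors deposited RSEM-format tables of expected counts and TPM per gene for each of 10 libraries, per the file headers, and a TPM table of protein-coding genes. The deposited TPM values correct for gene length and sum to the same total in each library. Per the labels' protocols, RNA was column-purified and made into stranded Illumina libraries. RSEM 1.3.0, STAR 2.7.8a, FastQC and GRCm39 are named, per the submitters' processing notes. How strand was treated in counting is not stated in those sources. Of the expected counts 13.9% were not whole, since RSEM divides shared reads, so Ccl21a and Ccl21b, and Ccl27a and Ccl27b, are uncertain as single genes.

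Expected counts were rounded and tested with edgeR 4.0.16 (R 4.3.3, limma 3.58.1): filterByExpr (minimum count 10, minimum total 15), TMM factors, 1 robust quasi-likelihood fit over the 4 groups, and Benjamini-Hochberg adjustment over 20216 genes at 0.05. The procedure was tested on simulated counts. The common dispersion was 0.0767, and replicates differed far beyond counting noise. Adjusted p-values with no other tool named are edgeR's. CPM uses TMM-scaled library sizes. SEs are the absolute log2 fold change over the square root of the F statistic, and fitted values use a prior count of 0.125. With 0 counts in a genotype the fold is a bound against 3 counts over the group, and with 1 to 3 counts a ratio with a counting interval; both cover counting error only.

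Groups came from the titles; titles and descriptions number the wild type 14 dpa pair in opposite order. The members and gene lists were chosen with earlier results of these data known. Values are printed for members called in a genotype contrast and for their ligand or receptor partners. A member withheld from the text and figures is not reported here, but is part of the counts and fits. Alternatives numbered 21 planned and 2 added, including DESeq2 1.42.0. Promoters are RefSeq's on GRCm38.p6, with entries for 45 of the 60 genes; no GRCm39 genome was used here.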

Additional observations from a re-analysis of the deposited data

Results flagged for a closer look

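Cxcl14 differed between genotypes in opposite directions on the 2 days. The genotype difference at 14 dpa minus that at 12 dpa was 1.37 on the log2 scale, with -0.74 at 12 dpa and 0.62 at 14 dpa, and every mutant library lay below wild type at 12 dpa and above it at 14 dpa. The edgeR interaction test gave an unadjusted p of 6.1e-05 and an adjusted p of 0.544, so it did not pass the correction over 20216 genes.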

How the results depend on the processing

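No fold change of a called member changed direction under any alternative run. The median over the tested members, 0.23 over both days, was -0.04 without mutant 12 dpa replicate 3, -0.0021 with the replicate block and 0.0034 with the strict filter. Over both days, the counts of 11 higher and 5 lower members became 6 higher with the strict filter of 1 CPM in 2 libraries, where 24 members remained tested, and 3 lower on log2(TPM + 1) and log2(TPM + 0.1). At 12 dpa, 3 higher became 1 with limma-voom, 8 on log2(TPM + 0.1), 11 with DESeq2 and 7 without mutant 12 dpa replicate 3 and mutant 14 dpa replicate 1, the last chosen after seeing the data. At 14 dpa, 7 higher became 4 with no filter and 4 with limma-voom, and 11 without that pair, and 4 lower became 2 with no filter and 2 on log2(TPM + 0.1). The change over time in mutants, 0 members, became 1 on log2(TPM + 0.1) and 3 with DESeq2. The difference between days, 0 members, became 1 with DESeq2, which called 48 of all 20216 genes there. Placing mutant 14 dpa replicate 1 in wild type, as its genotype tag has it, left 0 members higher and 0 lower on either day and over both days, and 0 of all genes over both days. Unless stated, the cause was not tested.

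Leaving out each library in turn gave 9 to 11 higher and 3 to 7 lower members over both days, 0 to 5 higher and 1 to 3 lower at 12 dpa, 0 to 10 higher and 0 to 6 lower at 14 dpa, and 0 to 0 for the difference between days and for both changes over time. Same-numbered libraries deviated from their group means with correlations of -0.121 to 0.0862. These values do not show that the numbers pair the samples. They cannot exclude it either, because deviations within such small groups must cancel. With the replicate number as a block, 10 members were higher and 5 lower over both days, 3 and 2 at 12 dpa and 7 and 4 at 14 dpa, and not all were the genes called without it. The block ended the calls of Ccl17, Ccl21b and Xcr1 over both days, where Ccr3 and Cxcr4 were gained, of Ccl4 and Cx3cr1 at 12 dpa, and of Ccl6, Ccr4 and Ccl21b at 14 dpa. Ccl17, Ccr6 and Xcr1 were under 1 CPM in every library, which limits their precision.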
